A study of Mus musculus with 6 samples.

Results

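The 10 immediate early genes Fos, Fosb, Jun, Junb, Jund, Egr1, Egr2, Ier2, Zfp36 and Atf3 were followed across 6 bead arrays of mouse prospective lens tissue. They were chosen by gene symbol from 17711 genes named on the array. They are carried by 11 of the 46632 probes of the array, 1 probe for each gene and 2 for Junb. The tissue was surface ectoderm of 3 Pax6-/- embryos, compared with lens placode of 3 wild-type (WT) embryos, all at embryonic day E10.25 on a mixed FVB and 129 background. Frozen sections were laser-microdissected after a short ethanol and eosin stain, and the 2 prospective lens areas of an embryo were amplified together for 1 array. The Pax6 allele is not described in the labels, Pax6 being the paired-box transcription factor needed for eye development. The comparison asks how these genes differ in the tissue when Pax6 function is missing.

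Immediate early genes are transcribed within minutes of a stimulus, without new protein synthesis, because the factors that switch them on are already present in the cell. Growth factors and stress act through ERK and other kinases on serum response factor with its ETS partners and on CREB. The products are mainly transcription factors: Fos and Jun family proteins pair through leucine zippers as AP-1, and Egr proteins bind GC-rich DNA through zinc fingers. Their RNAs also rise when tissue is dissected or dissociated, so they are widely read as markers of handling, and in embryonic ectoderm they also follow growth factor signalling.

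A probe was called above background at a detection p-value under 0.05 against the negative-control beads of its array, which held for 35.0% to 37.8% of probes on Pax6-/- arrays and 36.2% to 40.2% on WT arrays. At a detection p-value under 0.01 the arrays differed more, with 12462, 9947 and 9054 probes in Pax6-/- embryos 1, 2 and 3, against 13628, 10802 and 12342 in WT embryos 1, 2 and 3. Of 21 probes of epithelial genes, 19 were above background on at least 3 arrays and 15 on all 6, Epcam among them. Of the 19, 6 were higher and 2 lower in Pax6-/- at an unadjusted p under 0.05, and 0 passed the adjusted limma threshold. Over all tested probes 3.92% were higher and 5.04% lower at that unadjusted p. The 18 tested probes of lens placode genes averaged 6.93 to 7.06 on the Pax6-/- arrays and 9.03 to 9.08 on the WT arrays (normalised log2 intensity). Probes of Maf and of Pax6 itself are among these 18. The 3 probes of Pax6 itself differed by -0.99 ± 0.30, -0.82 ± 0.25 and -0.52 ± 0.26 on the log2 scale (limma, ± SE, adjusted p = 0.388, 0.391 and 0.646). Whether they lie in the altered part of the allele is not known, so they check nothing about the genotype.

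Most of the immediate early genes were above background on few arrays or none. Egr2, Ier2, Jund and Atf3 were not above background on any array, and Fos, Fosb, Junb and Egr1 were so on 1 or 2 arrays. Only Jun and Zfp36 reached the 3 arrays required for testing, and of these 2 only Zfp36 was above background on all 6. Of the 11 probes, 5 (45.5%) were never above background, against 44.6% of all probes. Those above background on all 6 arrays were 1 of 11 (9.09%), against 23.0% of all probes, and 2 of 11 (18.2%) were tested, against 38.1% of all probes. A probe below background sets only an upper limit on its RNA.

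**Figure D1:**
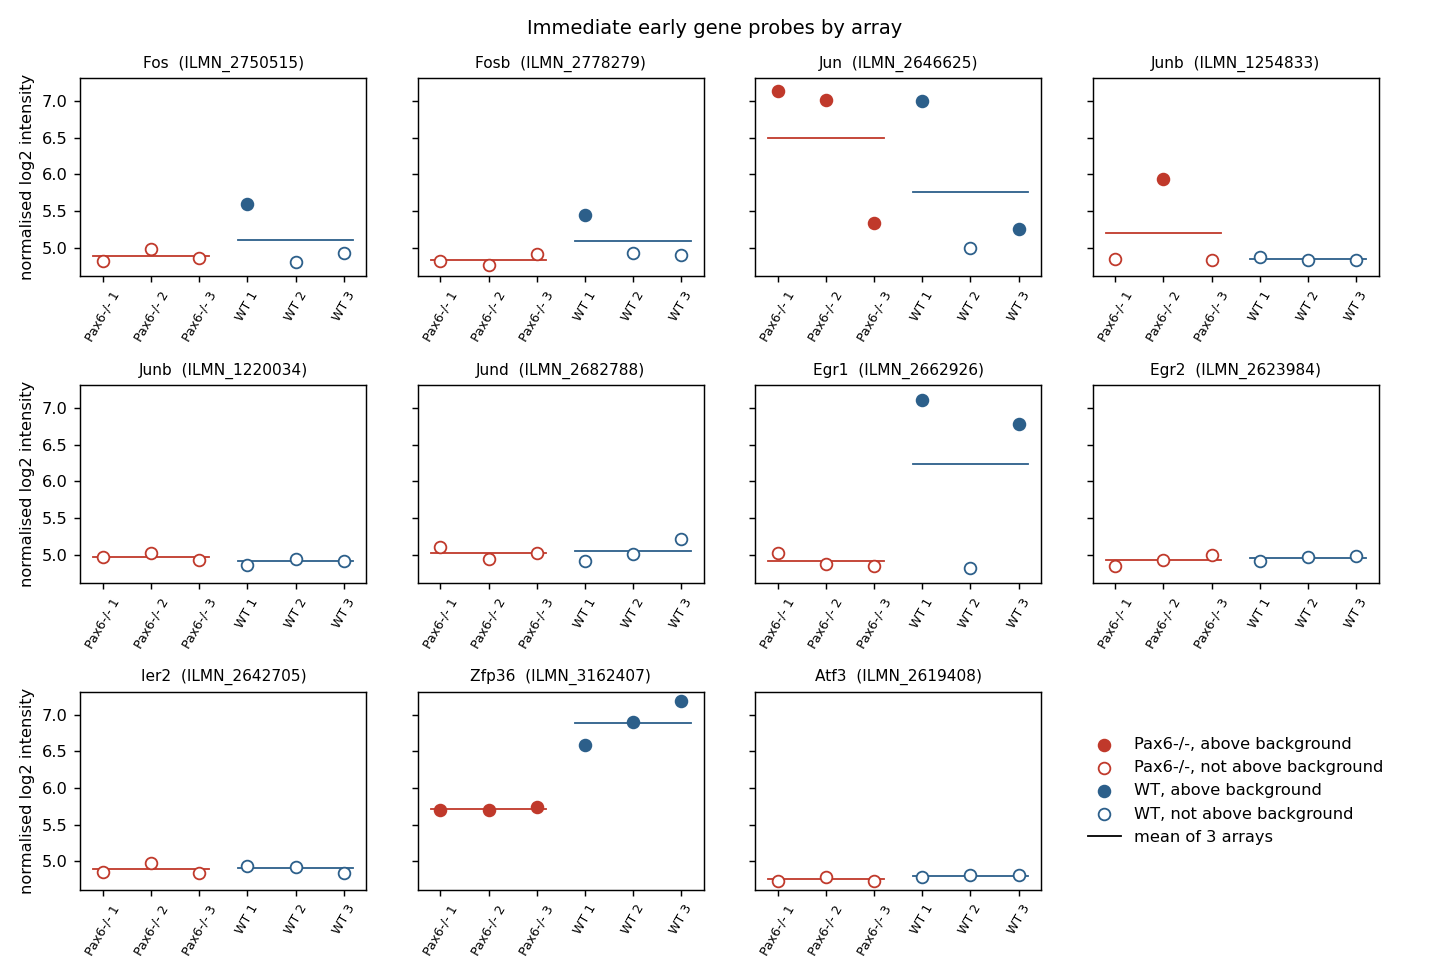
Normalised log2 intensity (vertical axis) of the 11 probes on the 3 Pax6-/- arrays (red, left) and the 3 WT arrays (blue, right). Filled points are above background, open points are not, and lines are means of 3 arrays. Zfp36 is the one panel with all 6 points filled, and its 3 Pax6-/- points lie below its 3 WT points.

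Zfp36 stood lower in all Pax6-/- arrays, although it did not pass the test over all probes. Zfp36 encodes tristetraprolin, a zinc finger protein that binds AU-rich elements and shortens the life of cytokine and immediate early mRNAs. The gene lies on chromosome 7. Its normalised log2 levels were 5.70, 5.70 and 5.74 in Pax6-/- embryos 1, 2 and 3, against 6.59, 6.90 and 7.19 in WT embryos 1, 2 and 3. The groups did not overlap, and the Pax6-/- arrays lay close to each other. The means were 5.71 ± 0.02 in Pax6-/- and 6.89 ± 0.30 in WT (SD, n = 3 each). The log2 difference was -1.18 ± 0.25 (SE), or 2.27-fold lower in Pax6-/-, with a 95% interval of -1.80 to -0.56. In limma the unadjusted p was 0.0035 and the adjusted p = 0.219 over 17751 probes, where Zfp36 ranked 282 by p.

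The raw bead intensities of Zfp36 showed the same split. They were 93.2 ± 2.1, 89.0 ± 2.4 and 87.2 ± 2.4 in Pax6-/- embryos 1, 2 and 3 (± standard error of the bead mean). In WT embryos 1, 2 and 3 they were 192.5 ± 4.6, 187.1 ± 4.5 and 149.98 ± 4.30. WT embryo 3 was thus the lowest of the WT arrays before normalisation and the highest after it, while each stayed above every Pax6-/- array. The Pax6-/- signals were near background, with detection p-values of 0.013, 0.022 and 0.020 in embryos 1, 2 and 3, against 0.0025, 0.0025 and 0.0037 in WT embryos 1, 2 and 3. Between 54 and 77 beads stood behind each of these values, more than for any other of the 11 probes.

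As background for these counts, 0.0620% of the 17751 tested probes passed an adjusted p of 0.05, 2 higher and 9 lower in Pax6-/-, and 8.96% had an unadjusted p under 0.05. In 7.11% of the tested probes all Pax6-/- arrays lay below all WT arrays, and in 7.88% all lay above (15.0% in either direction). Of the 2 tested immediate early probes, 0 passed the adjusted limma threshold and 1, Zfp36, had an unadjusted p under 0.05. The Zfp36 difference kept its direction in all 15 alternative settings, with adjusted p of 0.094 to 0.474. Without any 1 of the 6 arrays it was -1.29 to -1.05.

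The promoter of Zfp36 holds a CArG box, the element that serum response factor binds, and it is shown because this is the member whose arrays separated by genotype. The 250 bases before the annotated start are RefSeq sequence of GRCm38.p6, chr7:28379229-28379478, minus strand. Capitals mark an Egr site (GCGNGGGCG), whose match begins 105 bases before the start, and a CArG box, whose match begins 58 bases before it.
Zfp36: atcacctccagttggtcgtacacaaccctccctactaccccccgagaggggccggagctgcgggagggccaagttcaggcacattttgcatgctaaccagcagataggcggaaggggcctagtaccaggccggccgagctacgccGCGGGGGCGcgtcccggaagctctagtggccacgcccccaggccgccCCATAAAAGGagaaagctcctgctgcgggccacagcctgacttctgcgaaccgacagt
Both strands were searched, in 12 windows of 8 of the 10 genes, with Egr1 and Ier2 not searched. A CArG box was found in 1.47% and an Egr site in 4.70% of 32851 such windows of all genes, several windows standing for some genes. Among the other members with a window, a CArG box was found in 4 of 5 windows of Egr2. A match is a description of the letters and does not show binding.

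**Figure D2:**
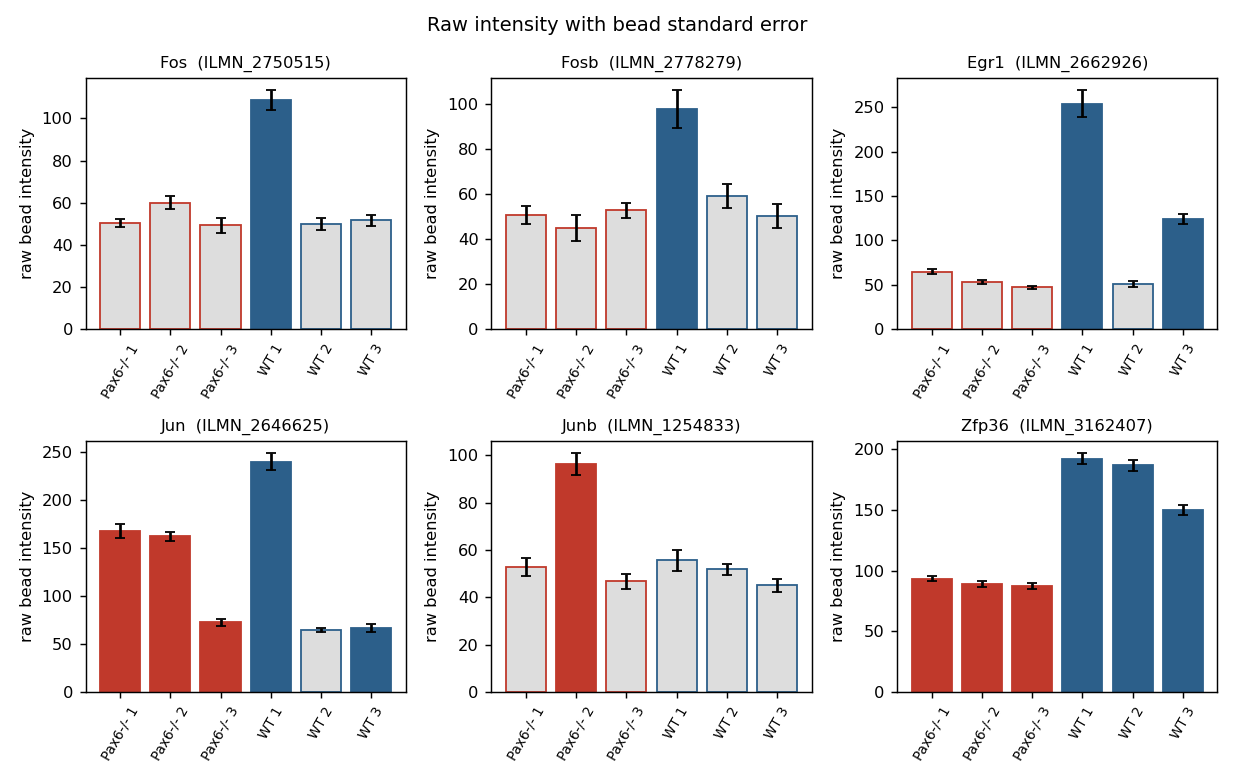
Raw bead intensity (vertical axis, linear, before normalisation) with the standard error of the bead mean for 6 probes on the Pax6-/- arrays (red outline, left) and the WT arrays (blue outline, right). Coloured bars are above background and grey bars are not. Fos and Fosb are above background on WT array 1 alone, Junb on Pax6-/- array 2 alone, and Zfp36 is near 90 on each Pax6-/- array and between 149.98 and 192.5 on the WT arrays.

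Zfp36 varied little between embryos of a genotype. Its residual SD was 0.21 on the log2 scale, at percentile 14.9 of all tested probes, where the median was 0.60. That value pools an SD of 0.02 in Pax6-/-, where the signal was near background, with 0.30 in WT. The named genes whose profile over the 6 arrays was nearest to that of Zfp36 were Kif15, a mitotic kinesin, Nipbl, which loads cohesin, and Pcnx. Centred on their own means, their profiles differed from that of Zfp36 by a root mean square of 0.14, 0.17 and 0.17 log2 units, against a median of 0.77 over 7964 probes. This is a description over 6 arrays, among probes above background on all of them.

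Jun was high on 3 arrays and low on 3, with both genotypes in each set. Jun is the AP-1 subunit that binds DNA as a homodimer or with Fos proteins. Its gene lies on chromosome 4. Its log2 levels were 7.14, 7.02 and 5.33 in Pax6-/- embryos 1, 2 and 3, against 7.005, 5.00 and 5.25 in WT embryos 1, 2 and 3. Pax6-/- embryos 1 and 2 and WT embryo 1 were the high arrays, and the groups overlapped. Jun was above background on all Pax6-/- arrays and on 2 of the 3 WT arrays, with WT array 2 below. The means were 6.50 ± 1.01 in Pax6-/- and 5.75 ± 1.09 in WT (SD, n = 3 each). The log2 difference was 0.74 ± 0.73 (SE) with a 95% interval of -1.05 to 2.53 (limma adjusted p = 0.818).

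The interval for Jun holds values in both directions. Its residual SD was 1.05, at percentile 81.5 of all tested probes. In raw intensity the high arrays read 167.5 ± 7.6 and 162.0 ± 5.0 in Pax6-/- and 240.0 ± 8.8 in WT, and the low ones 72.3 ± 3.6 in Pax6-/- and 64.5 ± 2.4 and 66.3 ± 4.5 in WT. The difference was 1.36 without Pax6-/- embryo 3 and 1.28 without WT embryo 1. It was 0.43, 0.497 and 0.36 without Pax6-/- embryo 1, Pax6-/- embryo 2 or WT embryo 2, and 0.50 without WT embryo 3. The centred profiles of Jun and Zfp36 differed by a root mean square of 1.37 log2 units.

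Fos and Fosb were above background on 1 array, that of WT embryo 1. Fos is the classical immediate early partner of Jun and Fosb its close relative, on chromosomes 12 and 7. Fos read 4.82, 4.99 and 4.87 in Pax6-/- embryos 1, 2 and 3, against 5.60, 4.80 and 4.93 in WT embryos 1, 2 and 3 (log2). Fosb read 4.82, 4.77 and 4.92 in Pax6-/- embryos 1, 2 and 3, against 5.45, 4.93 and 4.90 in WT embryos 1, 2 and 3. In both genes WT embryo 1 stood apart and the other 5 arrays were at background, so the groups overlapped.

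In raw intensity WT embryo 1 stood above the other arrays by many bead standard errors. Fos read 108.7 ± 4.6 there on 33 beads and 49.2 to 60.1 on the other 5 arrays. Fosb read 97.7 ± 8.4 there on 15 beads and 44.96 to 59.2 on the others. Bead error covers 1 hybridisation only and says nothing about embryos. Neither gene was tested. The differences of the means, Pax6-/- minus WT, were -0.22 for Fos and -0.26 for Fosb, and 0.02 and -0.08 without WT embryo 1.

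The promoter windows of Fos and Fosb, and that of Jun, are set side by side because these AP-1 genes share high values on WT array 1. Jun was also high on Pax6-/- arrays 1 and 2. Each is the 250 bases before the annotated start (RefSeq, GRCm38.p6): Fos at chr12:85473640-85473889, plus strand, Fosb at chr7:19310046-19310295, minus strand, and Jun at chr4:95052223-95052472, minus strand. Capitals mark the cAMP response element core TGACG, the Egr site GCGNGGGCG and the site TGACNTCA, which AP-1 and CREB-like factors bind and which contains TGACG where its free base is G.
Fos: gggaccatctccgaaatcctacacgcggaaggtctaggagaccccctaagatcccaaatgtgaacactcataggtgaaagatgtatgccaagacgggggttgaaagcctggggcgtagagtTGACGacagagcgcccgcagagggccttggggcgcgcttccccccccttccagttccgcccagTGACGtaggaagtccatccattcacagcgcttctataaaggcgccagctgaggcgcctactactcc
Fosb: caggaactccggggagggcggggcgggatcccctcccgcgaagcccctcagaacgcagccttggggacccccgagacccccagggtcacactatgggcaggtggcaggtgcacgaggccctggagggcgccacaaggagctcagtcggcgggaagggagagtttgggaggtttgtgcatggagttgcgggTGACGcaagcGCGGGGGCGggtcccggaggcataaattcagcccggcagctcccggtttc
Jun: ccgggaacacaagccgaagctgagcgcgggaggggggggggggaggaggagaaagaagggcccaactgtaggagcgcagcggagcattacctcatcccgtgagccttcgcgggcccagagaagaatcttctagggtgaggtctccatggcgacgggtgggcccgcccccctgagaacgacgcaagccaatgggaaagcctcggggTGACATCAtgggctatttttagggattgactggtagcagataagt
TGACG was found 2 times in Fos and 1 time in Fosb, and in 17.8% of all windows. It was also found in the windows of Junb and Atf3 and in some of Egr2, genes not above background on WT array 1. TGACNTCA was found in Jun and in 7.49% of all windows. No TGANTCA, the core AP-1 site, was found in the windows of these 3 genes, against 6.75% of all windows. Elements farther from the start were not searched.

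Egr1 was above background in 2 of 3 WT embryos and in no Pax6-/- embryo. Egr1 is a zinc finger transcription factor induced through serum response elements, and its gene lies on chromosome 18. Its log2 levels were 5.02, 4.87 and 4.84 in Pax6-/- embryos 1, 2 and 3, against 7.11, 4.81 and 6.79 in WT embryos 1, 2 and 3. WT embryos 1 and 3 were high, while WT embryo 2 was below all Pax6-/- arrays, so the groups overlapped. In raw intensity WT embryos 1 and 3 read 253.8 ± 15.1 and 124.4 ± 5.6, and the other 4 arrays read 47.4 to 64.8. Against the detection limit of the Pax6-/- arrays the WT mean was 2.01-fold higher. That mean includes WT embryo 2, which was below background, so the value is not a lower bound.

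Egr1 did not enter the test because it was above background on fewer than 3 arrays. Its difference of means, Pax6-/- minus WT, was -1.32. Without WT embryo 2 the difference was -1.99, and without WT embryo 1 or 3 it was -0.82 or -1.07. With all 46632 probes fitted its limma adjusted p = 0.873, as it was for Fos and Fosb.

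Junb was above background on the array of Pax6-/- embryo 2 on 1 of its 2 probes. Junb and Jund are Jun relatives that form AP-1 with less activating power or with steadier expression than Jun. The probe ILMN_1254833 read 4.85, 5.93 and 4.83 in Pax6-/- embryos 1, 2 and 3, against 4.88, 4.83 and 4.83 in WT embryos 1, 2 and 3. The second probe, ILMN_1220034, read 4.93 to 5.02 in Pax6-/- and 4.86 to 4.94 in WT and was never above background. The probes differ in the transcript record they were designed on, the first on a cDNA clone and the second on the RefSeq transcript. Both probes were highest on Pax6-/- array 2, but the second read 5.02 there, against 4.97 on its next array, and was below background. Without Pax6-/- embryo 2 the difference of the first probe was -0.01, against 0.36 with it.

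Jund, Egr2, Ier2 and Atf3 gave background values throughout. Egr2 is a zinc finger relative of Egr1, Ier2 a small nuclear protein induced with Fos, and Atf3 a stress-induced bZIP factor. Together with the second Junb probe they read 4.73 to 5.21, where the lowest signals called above background on an array were 5.11 to 5.27. Their differences of means, Pax6-/- minus WT, were -0.05 to 0.07. The nearest to the threshold was Jund on WT array 3, with a detection p-value of 0.052.

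The array of WT embryo 1 held more of these probes above background than any other. The counts were 2, 3 and 2 of 11 in Pax6-/- embryos 1, 2 and 3, against 5, 1 and 3 in WT embryos 1, 2 and 3. WT array 1 carried Fos, Fosb, Egr1, Jun and Zfp36, and WT array 2 only Zfp36. At a detection p-value under 0.01 the counts were 1, 1 and 0 in Pax6-/- and 4, 1 and 2 in WT. WT array 1 also had the most of all probes above background at either threshold. Of the 5072 probes above background on a single array, 24.1% were so on WT array 1, against 19.4% or less on any other array.

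Probes of other immediate early genes were most often above background on Pax6-/- array 1. Of 60 probes of 37 further immediate early genes, 32, 26 and 29 were above background in Pax6-/- embryos 1, 2 and 3, against 26, 24 and 27 in WT embryos 1, 2 and 3. Of the 5 of these probes above background on a single array, 0 were so on WT array 1. Among 20 heat shock and stress probes 12, 11 and 10 were above background in Pax6-/- embryos 1, 2 and 3, against 14, 13 and 11 in WT embryos 1, 2 and 3. Both heat shock probes above background on a single array were so on WT array 1, as were 24.1% of all 5072 such probes. Over all probes the shares above background were 37.8%, 35.0% and 35.2% in Pax6-/- embryos 1, 2 and 3, against 40.2%, 37.4% and 36.2% in WT embryos 1, 2 and 3. Dusp1, an immediate early phosphatase that switches off MAP kinases, is named after its values were seen and was above background on all 6 arrays. It read 8.04, 9.19 and 8.03 in Pax6-/- embryos 1, 2 and 3, against 9.49, 7.81 and 7.33 in WT embryos 1, 2 and 3. WT array 1 was thus the highest, and the groups overlapped. The means were 8.42 ± 0.67 in Pax6-/- and 8.21 ± 1.13 in WT (SD, n = 3 each).

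**Figure D3:**
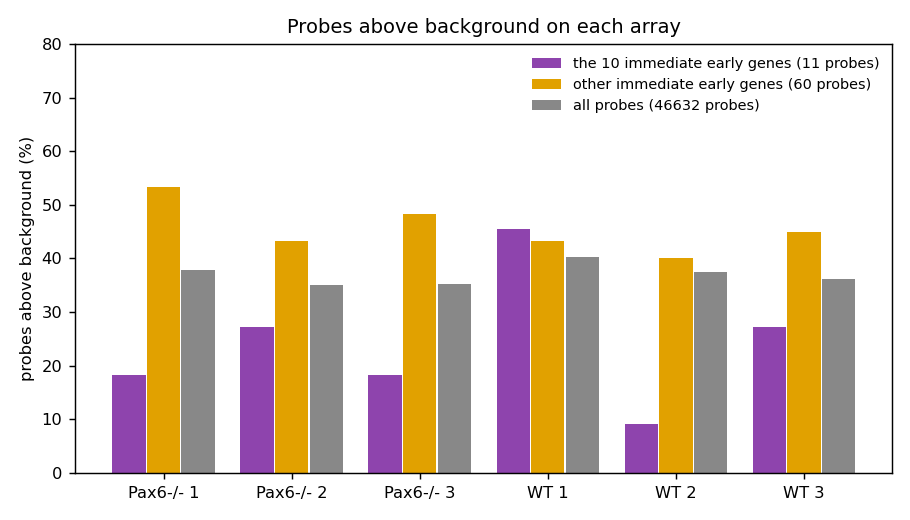
Share of probes above background (vertical axis, percent) on each array, Pax6-/- left and WT right, for the 11 probes of the 10 genes, 60 probes of other immediate early genes and all 46632 probes. The 11 probes range from 9.09% on WT array 2 to 45.5% on WT array 1, while the share of all probes stays between 35.0% and 40.2%.

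Among the other immediate early genes none passed over all probes. Of 32 tested probes of 25 genes, 0 passed the adjusted limma threshold, and 4 were higher and 0 lower in Pax6-/- at an unadjusted p under 0.05, where 3.92% of all tested probes were higher. Their median log2 change was 0.35, against 0.05 over all tested probes, with 21 positive and 11 negative. Rhob, a small GTPase, averaged 6.46 ± 0.06 in Pax6-/- and 5.39 ± 0.27 in WT (SD, n = 3 each, limma adjusted p = 0.252). Zfp36l1, a relative of Zfp36 with the same RNA-binding zinc fingers, averaged 10.90 ± 0.07 in Pax6-/- and 10.19 ± 0.12 in WT (adjusted p = 0.402). It thus stood on the other side from Zfp36 on this probe, and its other 2 tested probes differed by 0.77 ± 0.90 and -0.16 ± 0.39.

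Per1 and Ccn1 were the other 2 genes of that list with an unadjusted p under 0.05. Per1, a circadian clock repressor, read 9.39, 9.52 and 8.03 in Pax6-/-, against 5.89, 6.02 and 8.37 in WT (adjusted p = 0.484), where WT embryo 3 overlapped the Pax6-/- arrays. Ccn1 encodes a matricellular protein. On 1 probe it was not above background on any WT array, and its Pax6-/- level was higher by at least 1.38-fold (limma adjusted p = 0.522). The second Ccn1 probe was above background on 2 arrays of each genotype and differed by -0.10 ± 1.13. The second tested Rhob probe differed by 0.65 ± 0.50.

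The kinases and factors that act upstream of these genes had as many positive as negative differences, 14 each. Of 28 tested probes, 0 passed the adjusted limma threshold (median log2 change -0.00). At an unadjusted limma p under 0.05, 1 was higher and 2 lower, where 3.92% of all tested probes were higher and 5.04% lower. Rps6ka5, the kinase MSK1 that phosphorylates CREB and histone H3, averaged 5.36 ± 0.53 in Pax6-/- and 6.89 ± 0.18 in WT (adjusted p = 0.232) and was above background on 1 Pax6-/- array. Mapk14, the p38 alpha kinase, averaged 7.55 ± 0.81 in Pax6-/- and 8.996 ± 0.09 in WT (adjusted p = 0.386). Mapk9, the kinase JNK2 that phosphorylates Jun, differed by 1.78 ± 0.62 on 1 probe (adjusted p = 0.467), while its other 2 tested probes differed by -0.97 ± 0.71 and -0.33 ± 0.49. The other tested probes of Rps6ka5 differed by -1.47 ± 1.20 and 0.18 ± 0.34, so the probes of both genes differed in sign.

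Negative feedback genes and heat shock genes held 1 probe between them with an unadjusted p under 0.05. The 12 tested negative feedback probes were those of MAP kinase phosphatases, Sprouty-type inhibitors, an Egr co-repressor and Jdp2. Of these, 0 had an unadjusted or adjusted limma p under 0.05 (median log2 change -0.21). Over all tested probes 8.96% had an unadjusted limma p under 0.05. Of 11 tested heat shock and stress probes, 0 passed the adjusted threshold (median -0.08). At an unadjusted limma p under 0.05, 1 was higher and 0 lower, where 3.92% of all tested probes were higher. The higher probe was that of Hspb8, a small heat shock protein, which averaged 11.86 ± 0.18 in Pax6-/- and 10.89 ± 0.57 in WT (adjusted p = 0.491). The 2 probes of Hspa1a, an inducible Hsp70 gene, were not above background on any array.

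Other bZIP factors, the class to which Fos, Jun and Atf3 belong, had 5 positive and 9 negative differences. Of 14 tested probes, 1 passed the adjusted limma threshold and 5 were lower and 0 higher at an unadjusted p under 0.05, where 5.04% of all tested probes were lower (median log2 change -0.28). The probe that passed was Maf, a lens regulator, which fell by at least 44.1-fold and was below background on every Pax6-/- array (adjusted p = 0.0034). Without any 1 of the 3 Pax6-/- arrays its adjusted p was 0.066 to 0.070, and with the replicate number as a block it was 0.419. Atf7 averaged 5.29 ± 0.43 in Pax6-/- and 7.48 ± 0.27 in WT (adjusted p = 0.113), with 1 Pax6-/- array above background. Nfe2l1 and Mafg differed by -1.31 ± 0.34 and -0.90 ± 0.31 (adjusted p = 0.314 and 0.466).

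**Figure D4:**
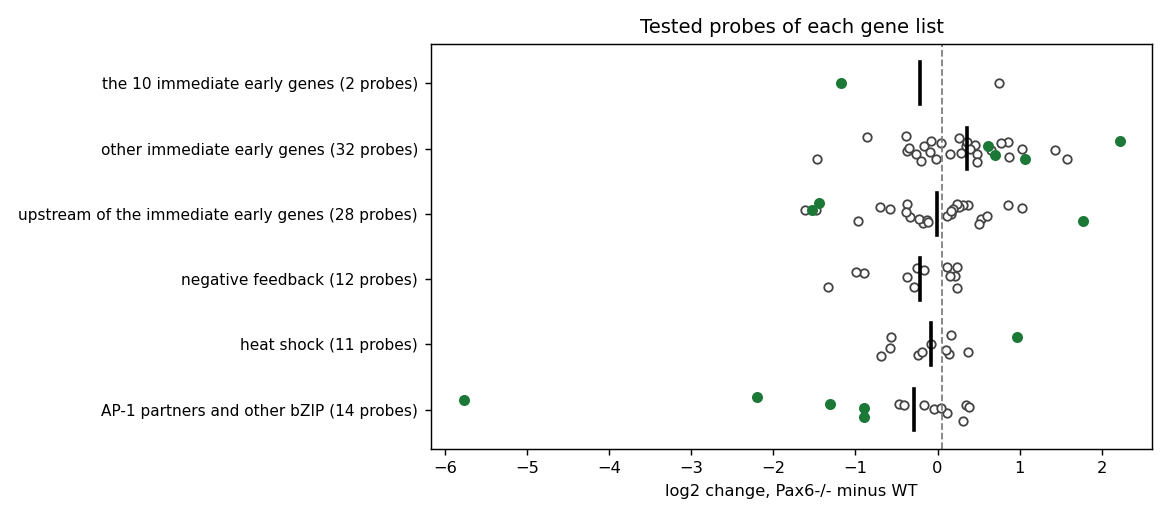
Log2 change, Pax6-/- minus WT (horizontal axis), of each tested probe in 6 gene lists (rows), filled green where the unadjusted limma p is under 0.05. Black bars are list medians and the dashed line is the median of all tested probes, 0.05. Zfp36 is the filled point of the top row at -1.18, and the probe at -5.77 in the bottom row is Maf.

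Markers of other cell types differed between the same arrays. In bulk tissue, fewer cells of a type and less RNA per cell cannot be told apart. The 7 tested of 11 red blood cell probes averaged 8.57, 8.54 and 8.09 in Pax6-/- embryos 1, 2 and 3, against 7.45, 5.79 and 6.92 in WT embryos 1, 2 and 3. Pax6-/- arrays were higher throughout, and among the WT arrays that of embryo 1, where Fos and Fosb were above background, was the highest. The 6 tested of 18 endothelial probes averaged 6.66 to 7.08 in Pax6-/- and 5.68 to 5.92 in WT.

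Other lists of neighbouring tissues were compared in the same way. The 7 tested of 20 optic cup probes averaged 6.71 to 7.22 in Pax6-/- and 5.90 to 6.10 in WT, with 5 higher and 2 lower in Pax6-/-. The 12 tested of 20 mesenchyme probes averaged 6.94 to 7.65 in Pax6-/- and 6.54 to 7.25 in WT. Of these 12 probes 9 were higher and 3 lower in Pax6-/-, with log2 changes from -3.81 to 2.10. The 3 tested of 18 macrophage probes averaged 6.26, 5.19 and 6.57 in Pax6-/- embryos 1, 2 and 3, against 6.66, 5.34 and 6.71 in WT embryos 1, 2 and 3. Pax6-/- embryo 3 and WT embryos 1 and 3 had the highest of these averages. Of the 18 macrophage probes 4, 2 and 2 were above background in Pax6-/- embryos 1, 2 and 3, against 7, 1 and 2 in WT embryos 1, 2 and 3. WT array 1 thus had the most, as it had of all probes (40.2%, against 35.0% to 37.8% on the other arrays). The macrophage genes Ptprc and Spi1 were not above background on any array, and 11 of the 18 probes never were. The part of these cell types in the values of Zfp36, Jun, Fos, Fosb and Egr1 was not tested.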

How the data were processed

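Per the labels' protocols, amplification with the Nugen WT-Ovation Pico system started from 15 ng of RNA per embryo, and the product was biotin-labelled. Per the file headers, the deposited table gives every probe an intensity averaged over its beads, with bead count and standard error. It also gives the authors' detection p-value, set against negative-control beads. GenomeStudio, of unstated version, is named in the submitters' processing notes. A second deposited table of the authors' processed intensity, which holds values below 0, served as an alternative. No sample column was left unmapped (0).

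Groups came from the sample titles. The design text gives each array as 1 embryo, so embryos were the replicates. Probes were named through the platform annotation and symbols checked against RefSeq (GRCm38.p6), which changed 0. The neqc function of limma 3.58.1 (R 4.3.3) was applied: normexp background correction, an offset of 16, quantile normalisation and log2. The offset shrinks changes of dim probes, such as most of those reported. Probes above background on at least 3 of 6 arrays were fitted per probe with lmFit and eBayes, Pax6-/- minus WT, with no covariates and Benjamini-Hochberg adjustment over 17751 probes at 0.05. With 3 arrays per genotype an exact permutation test cannot go below p = 0.1, and the p-values depend on how limma models variance. A probe below background on every array of a genotype, and above it on every array of the other, has a bound ("at least N-fold"). The bound is set against the lowest detected signal.

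The fit was tested on simulated data. When 200 of 17751 probes were changed in each of 10 runs of this comparison, 0% of changes of log2 1, 13.0% of log2 2 and 79.5% of log2 4 were recovered. The genes and lists were chosen with earlier results of these data known. Named genes were all members, Pax6, and from each further list up to 4 genes (8 from the other immediate early genes) with an unadjusted p under 0.05, smallest p first. Genes like a member in profile were sought for members above background on all 6 arrays.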

Additional observations from a re-analysis of the deposited data

How the results depend on the processing

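In 14 of the 15 alternatives the 2 probes of Jun and Zfp36 were fitted, and without the detection filter all 11. None of those fitted passed the adjusted limma threshold in any of the 15, and Zfp36 alone had an unadjusted p under 0.05. The count over all probes, 11 (2 higher, 9 lower), depended on the settings. It was 7 (0 and 7) under median scaling of the arrays, 4 (0 and 4) with cyclic loess, 3 with an offset of 50 and 4 with array weights. Median scaling moved the median change of all probes from 0.05 to -0.22, and Zfp36 stood at -1.51 there, 1.30 below that median. Without any 1 array the count over all probes was 0 to 1 (1292 to 1833 at an unadjusted p under 0.05, against 1590), that over the 5 further lists was 0 against 1, and the lists' count at an unadjusted p under 0.05 was 5 to 16 against 13. It was 8 and 5 without WT embryo 1 or 2. Replicate numbers are shared by the genotypes. All arrays carry the same prefix in the file headers. Same-numbered arrays carry neighbouring letters there (A and B, C and D, E and F). They did not deviate together (correlations 0.00015, -0.0023 and -0.0095 over the tested probes), which cannot show whether they were handled as pairs. With the replicate number as a block 0 of all probes, 0 of the 5 lists and 0 of the 2 fitted member probes passed in limma, with 1514 of all probes at an unadjusted p under 0.05. At a detection p-value under 0.01, chosen after seeing the data, the member probes above background were 1, 1 and 0 on Pax6-/- arrays 1, 2 and 3 (2, 3 and 2 at 0.05) and 4, 1 and 2 on WT arrays 1, 2 and 3 (5, 1 and 3 at 0.05). Of all probes 9054 to 12462 on Pax6-/- arrays and 10802 to 13628 on WT arrays were so. With the authors' processed values the difference was -0.58 against -0.26 for Fosb and -0.98 against -1.18 for Zfp36. Without a WT array Maf was above background on too few arrays to be fitted. The main limits are that 9 of 11 probes were above background on fewer than 3 arrays and that Zfp36 was near background on the Pax6-/- arrays. There was also 1 probe for most genes, and 3 embryos a genotype.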
